A study of Mus musculus with 10 samples.

Results

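Synaptic vesicle release machinery here means 35 named genes whose proteins load, dock, prime, fuse and recycle synaptic vesicles. They were picked by symbol from a table of 21956 genes measured in the hippocampus, and each of the 35 symbols had 1 row and passed the filter on low counts, which left 14396 genes for testing. The libraries came from mice of the hMapt genotype, named for the human tau gene, whose product binds microtubules, at 6 months of age. In 5 circTau6 libraries the treatment was injection of AAV-circTau6, an adeno-associated virus (a gene delivery vector) named for a circular RNA of the tau gene, 80 days before sampling. The other 5 libraries are labelled control, and the protocol calls those animals control-injected. The labels do not state what the control injection held, the promoter and serotype of the virus or the human tau construct. They also do not state how many animals made a library. Each p-value therefore sets the group difference only against the spread between these libraries, for an unknown number of animals. Each of the 45 library pairs differed beyond counting noise.

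At a nerve terminal, glutamate is pumped into vesicles, and synapsins hold the vesicles in a reserve near the release site. The active zone proteins Bassoon, Piccolo, RIM, Munc13 and ELKS tether vesicles and prime them, the SNARE proteins synaptobrevin, syntaxin and SNAP-25 pull the membranes together, and synaptotagmin triggers fusion when calcium enters. NSF and its SNAP adaptors then take the SNARE complex apart, and dynamin and synaptojanin return the membrane to the vesicle pool. In the hippocampus these proteins serve mainly glutamatergic terminals, and several of them are commonly used as synapse markers.

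No member passed the test between circTau6 and control libraries. With edgeR (quasi-likelihood F test, Benjamini-Hochberg adjustment over all tested genes), 0 of 35 members had an adjusted p under 0.05, and their adjusted p lay between 0.981 and 0.999. Of all tested genes 0% were called. At an unadjusted p under 0.05, 1 member was lower after circTau6 (Sv2b) and 0 were higher, against 1.85% and 2.58% of all tested genes. DESeq2 called 0.104% of tested genes and limma voom 0%, and neither called a member. The log2 fold changes of the members, circTau6 minus control, lay between −0.094 and 0.079. Their 95% intervals stayed within 0.25 on the log2 scale, a change of −15.9% to 18.9%, for 32 of 35 members. The intervals of the other 3, Syt2, Sv2c and Stx1a, reached past that.

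The transcript levels spanned a wide range and were dominated by the fusion and vesicle proteins. Summed over the 35 genes they made up 1.3% ± 0.043 of the transcripts in circTau6 libraries and 1.31% ± 0.043 in control libraries (SD, n = 5 each). Levels between genes are compared in TPM, the authors' abundance per transcript length and library. Snap25, which encodes the SNARE protein SNAP-25, ranked first with 2380 ± 157 TPM in circTau6 libraries and 2420 ± 103 TPM in control libraries. Its values were 2272, 2375, 2238, 2385 and 2639 TPM in circTau6 replicates 1 to 5, against 2415, 2590, 2306, 2400 and 2403 TPM in control replicates 1 to 5. The groups overlapped, and circTau6 replicate 5 was the highest of the 10 libraries. Below Snap25 came Syp, Vamp2, Syt1 and Dnm1, whose means lay between 923 and 1040 TPM in both groups. Their order does not hold beyond the spread between libraries. Syn3 and Sv2c were the lowest members, at 9.75 ± 1.01 and 10.6 ± 1.26 TPM in circTau6 libraries and 9.65 ± 1.25 and 11.2 ± 1.75 TPM in control libraries. The least covered member, Syn3, still had 130 to 182 counts per library.

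**Figure D1:**
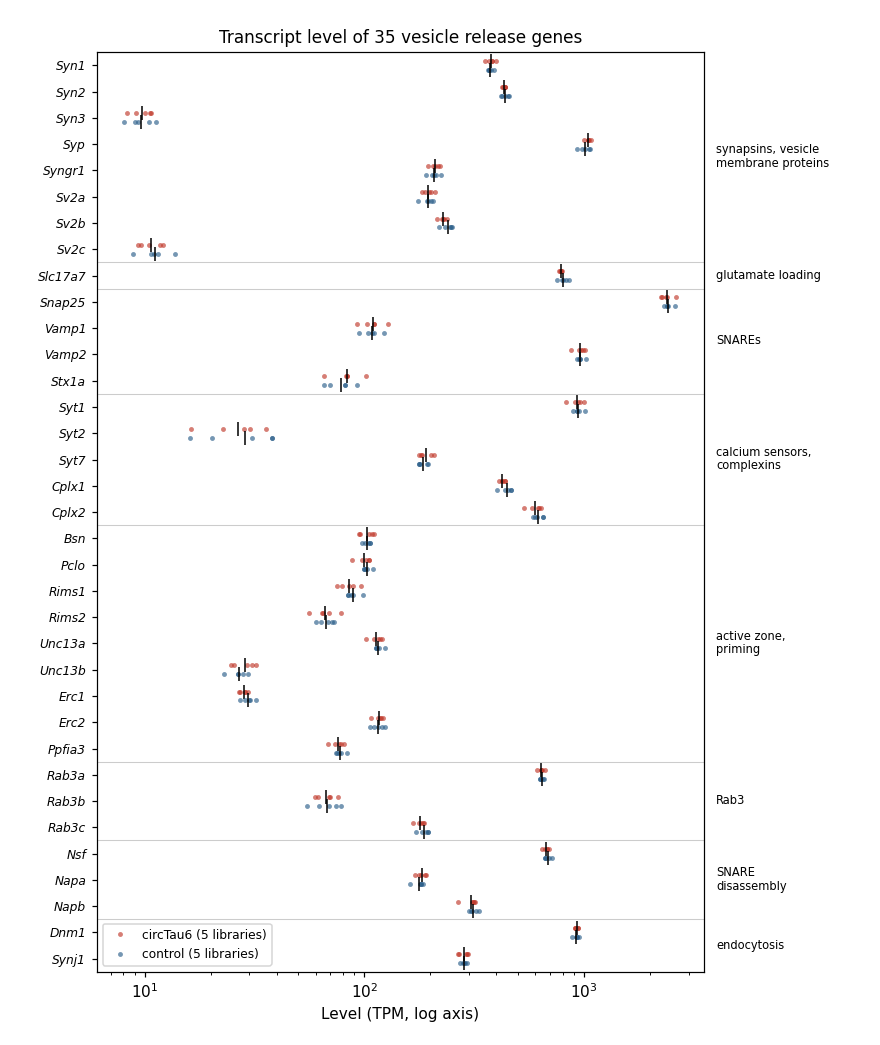
Transcript level of each member in TPM on a log axis, one point per library, with circTau6 libraries (red) above control libraries (blue) and a black tick at each group's mean. Snap25 is the highest at 2380 and 2420 TPM, Syn3 the lowest at 9.75 and 9.65 TPM, and the 2 colours overlap for every gene.

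Synapsins tether vesicles to each other and to actin. Syn1 had 377 ± 16.6 TPM in circTau6 libraries and 376 ± 9.31 TPM in control libraries, and Syn2 had 433 ± 6.98 and 437 ± 16.7 TPM. The log2 fold changes were −0.011 ± 0.039 (SE) for Syn1, −0.035 ± 0.038 (SE) for Syn2 and −0.002 ± 0.113 (SE) for Syn3. Thus a change of Syn1 beyond −6.28% or 5.04% lies outside its 95% interval. Exons of all 3 synapsin genes overlap a gene on the opposite strand in GENCODE M21 (Araf for Syn1, Timp4 for Syn2, Timp3 for Syn3). The libraries were strand-specific, but whether strand was used in counting is not given, so reads of these neighbours may be included. The same holds for Unc13a with Colgalt1 and Rab3a with Mpv17l2.

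The other vesicle membrane proteins include Syp, the abundant synaptophysin, Syngr1, a synaptogyrin, and the SV2 glycoproteins. Syp had 865.1, 915.6, 873.4, 846.6 and 949 CPM (counts scaled to the library size after TMM normalisation) in circTau6 replicates 1 to 5, against 906.2, 978.1, 887.5, 919.5 and 901.4 CPM in control replicates 1 to 5. In 3 of 5 circTau6 libraries Syp lay below every control library, while the other 2 were within the control range. Its log2 fold change was −0.046 ± 0.044 (SE). In TPM the circTau6 mean of Syp was the higher, at 1040 ± 28.9 TPM against 1010 ± 58.7 TPM in control libraries. Its direction thus depends on the unit. TPM and CPM did not keep a fixed ratio between libraries. Syp had 1049 TPM and 865.1 CPM in circTau6 replicate 1, and 926.7 TPM and 906.2 CPM in control replicate 1. The reason was not tested.

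Sv2b, which marks many glutamatergic terminals, had the lowest p of the members. It had 499.1, 489.6, 460.6, 489 and 506 CPM in circTau6 replicates 1 to 5, against 506.8, 543.5, 481.1, 540.6 and 536.2 CPM in control replicates 1 to 5. The circTau6 values lay below 4 of the 5 controls, and only control replicate 3 was inside their range. The log2 fold change was −0.094 ± 0.044 (SE), a difference of −6.28% with a 95% interval whose upper end just missed 0, and edgeR gave an unadjusted p of 0.0498 and an adjusted p of 0.981. Sv2b (ENSMUSG00000053025) lies on chromosome 7 from 75114894 to 75309262 in GRCm38. Its relative Sv2a, the form found at most synapses, had a log2 fold change of −0.007 ± 0.047 (SE), and Sv2c, best known from the basal ganglia, −0.088 ± 0.105 (SE). Syngr1 had −0.023 ± 0.05 (SE).

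Slc17a7, the vesicular glutamate transporter VGLUT1 of hippocampal pyramidal and granule cells, had 925.8, 942.3, 899.3, 901.3 and 916.2 CPM in circTau6 replicates 1 to 5, against 941.4, 1007, 993.3, 952 and 881.9 CPM in control replicates 1 to 5. The circTau6 libraries sat in a narrow band inside the control range. The log2 fold change was −0.059 ± 0.043 (SE).

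Among the SNAREs, Vamp2, the main vesicle SNARE of forebrain, made up 89.8% ± 1.1 of the summed Vamp1 and Vamp2 TPM in circTau6 libraries and 89.9% ± 0.9 in control libraries (SD, n = 5 each). The log2 fold changes were −0.049 ± 0.049 (SE) for Snap25, −0.023 ± 0.046 (SE) for Vamp2 and −0.006 ± 0.081 (SE) for Vamp1. Stx1a, the plasma membrane syntaxin, had the highest value of the members, 0.079 ± 0.099 (SE). It varied by 12.4% (coefficient of variation, SD over mean, of CPM) across the 10 libraries. Stx1a had 84.41 CPM in circTau6 replicate 5 and 56.68 to 71.42 CPM in the 4 remaining ones, against 57.64 to 76.26 CPM in control libraries.

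Of the calcium sensors, Syt1, which triggers fast release in most forebrain neurons, had 1748, 1842, 1581, 1780 and 1887 CPM in circTau6 replicates 1 to 5, against 1784, 1940, 1742, 1805 and 1823 CPM in control replicates 1 to 5. Replicate 3 of circTau6 was the lowest of all 10. The log2 fold change of Syt1 was −0.041 ± 0.051 (SE), and that of Syt7, a slower, high-affinity sensor, was 0.025 ± 0.049 (SE). Complexins clamp and assist the SNARE complex. Cplx1 had 360.6, 385.9, 374, 367.1 and 382.9 CPM in circTau6 replicates 1 to 5, against 397.7, 411.8, 362.4, 391.6 and 411.8 CPM in control replicates 1 to 5. Only control replicate 3 reached down into the circTau6 values. The log2 fold change of Cplx1 was −0.079 ± 0.043 (SE) with an edgeR adjusted p of 0.981, and that of Cplx2 was −0.065 ± 0.055 (SE).

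Syt2, the fast sensor of many inhibitory, thalamic and brainstem terminals, was the most variable member, with a coefficient of variation of 19.4%. It had 24.88, 43.73, 42.37, 41.98 and 49.45 CPM in circTau6 replicates 1 to 5, against 42.76, 46.59, 30.14, 43.72 and 50.53 CPM in control replicates 1 to 5. Thus 1 library of each group, circTau6 replicate 1 and control replicate 3, was low. The same libraries were the lowest of their groups for Slc17a6, the glutamate transporter of thalamic and other subcortical neurons, at 16.04 and 18.03 CPM, where the others had 29.26 to 49.49 CPM. They were also the lowest for Pvalb, a marker of fast-spiking interneurons, chosen after its values were seen, at 14.06 and 14.87 CPM against 17.45 to 20.61 CPM. Not all interneuron markers followed this order, since Cnr1, a cannabinoid receptor gene, was at its highest of the 10 libraries in circTau6 replicate 1 (255.9 CPM), and the summed interneuron list was lowest in circTau6 replicate 3. The part of cell content in the spread of Syt2 was not tested. The group difference of Syt2 was −0.079 ± 0.191 (SE) on the log2 scale, with a 95% interval from −29.8% to 27.7%, so a moderate change of this gene was not detectable.

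The 9 active zone and priming genes ranked 21 to 32 of the 35 members in TPM. The giant scaffolds Bsn and Pclo had 103 ± 7.34 and 99.4 ± 7.24 TPM in circTau6 libraries, and 103 ± 3.81 and 103 ± 4.11 TPM in control libraries. Unc13a, the main Munc13 priming factor of glutamatergic terminals, made up 79.9% ± 1.2 of the summed Unc13a and Unc13b TPM in circTau6 libraries and 81.3% ± 1.1 in control libraries. The log2 fold changes of the 9 genes of this role had a median of −0.053. They were −0.009 for Bsn, −0.064 for Pclo, −0.076 for Rims1, −0.056 for Rims2 and for the liprin gene Ppfia3, −0.053 for Erc1, −0.013 for Erc2, 0.004 for Unc13a and 0.043 for Unc13b. Standard errors were 0.048 to 0.072. Rims1 and Rims2 encode RIM, which links Rab3 on the vesicle to calcium channels. Rims1 had 190, 211.2, 174.5, 191.6 and 205 CPM in circTau6 replicates 1 to 5, against 203.2, 226.9, 196.3, 194.2 and 204.2 CPM in control replicates 1 to 5. In 3 of 5 circTau6 libraries it lay below every control, and the remaining 2 were inside the control range.

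Rab3 GTPases sit on docked vesicles. Rab3a made up 72.1% ± 0.58 of the Rab3 transcripts in circTau6 libraries and 71.7% ± 1.3 in control libraries, with Rab3c next at 20.3% ± 0.33 and 20.8% ± 0.81. Rab3a was among the steadiest members, with a coefficient of variation of 2.55% and a log2 fold change of −0.024 ± 0.037 (SE). Rab3c had −0.075 ± 0.047 (SE) and Rab3b 0.017 ± 0.097 (SE).

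Nsf, the ATPase that pulls SNARE complexes apart, had 673 ± 18.4 TPM in circTau6 libraries and 684 ± 23.4 TPM in control libraries, a log2 fold change of −0.042 ± 0.039 (SE). Of its adaptors, Napb, the brain form, made up 62.6% ± 2.4 of the summed Napa and Napb TPM in circTau6 libraries and 63.8% ± 1.2 in control libraries. Napb had 475.3 CPM in circTau6 replicate 3 and 544 to 563.4 CPM in the 4 remaining ones, against 540.1 to 589 CPM in control libraries. The log2 fold changes were −0.056 ± 0.049 (SE) for Napb and 0.02 ± 0.047 (SE) for Napa. In endocytosis, Dnm1, the neuronal dynamin that pinches off vesicles, was the steadiest member, with a coefficient of variation of 2.41%. Its log2 fold change was −0.031 ± 0.038 (SE), and that of the phosphatase gene Synj1 was −0.02 ± 0.041 (SE).

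**Figure D2:**
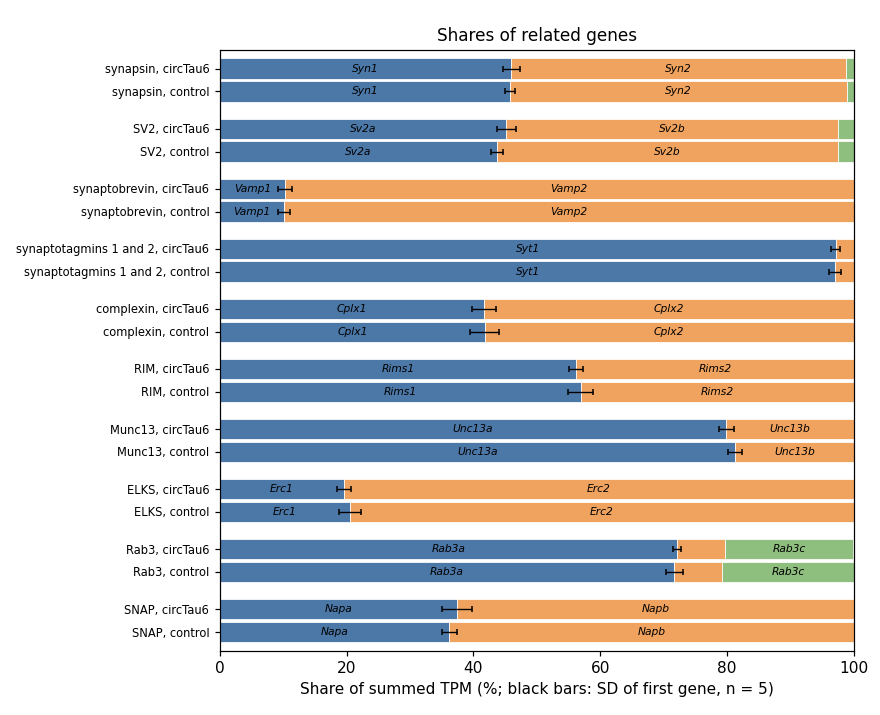
Share of each gene in the summed TPM of its relatives, as group means with circTau6 above control; black bars are the SD of the first gene's share (n = 5). Segments without a name are Syn3, Sv2c, Syt2 and Rab3b. The divisions nearly coincide, with Vamp2 at 89.8% and 89.9% and Syt1 at 97.2% and 97.1%.

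The shares of related genes overlapped between the groups. For each of these 10 sets of relatives, and for Bsn against Pclo, the ranges of the 5 circTau6 and 5 control libraries overlapped. Syt1 made up 97.2% ± 0.71 of the summed Syt1 and Syt2 TPM in circTau6 libraries and 97.1% ± 0.91 in control libraries, Erc2 80.5% ± 1.1 and 79.5% ± 1.7 of the ELKS transcripts, and Cplx2 58.4% ± 1.9 and 58.2% ± 2.3 of the complexin transcripts. The means farthest apart were those of Sv2a, at 45.2% ± 1.5 of the SV2 transcripts in circTau6 libraries and 43.7% ± 0.98 in control libraries.

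Promoter sequences were available in RefSeq for 30 of the 35 members (250 bases before to 50 after each listed start, GRCm38.p6). They were searched for TGACGTCA, the full cAMP-response element bound by the CREB family, which reads the same on both strands. Of the 30 members, 2 held it, Syn1 and Napa, which is 6.67% against 2.03% of the 27025 genes with a promoter entry. Its core TGACG, counted on both strands and contained in the full element, was in 11 members, 36.7% against 23% of genes. The promoters with the full element are shown because they hold the searched letters, with the element in capitals. It begins at base 92 in Syn1 (chrX:20920869-20921168, minus strand) and at base 244 in Napa (chr7:16098330-16098629, plus strand), counted from the 5′ end. GENCODE M21 starts Napa at 16098458, inside this window and before the element, so the annotations differ on the start.
Syn1: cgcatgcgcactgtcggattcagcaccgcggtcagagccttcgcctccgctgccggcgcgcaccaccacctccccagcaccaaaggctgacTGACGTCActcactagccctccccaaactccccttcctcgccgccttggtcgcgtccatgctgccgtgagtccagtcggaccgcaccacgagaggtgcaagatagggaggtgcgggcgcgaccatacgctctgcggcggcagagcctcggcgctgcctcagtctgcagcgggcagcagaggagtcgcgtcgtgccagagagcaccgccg
Napa: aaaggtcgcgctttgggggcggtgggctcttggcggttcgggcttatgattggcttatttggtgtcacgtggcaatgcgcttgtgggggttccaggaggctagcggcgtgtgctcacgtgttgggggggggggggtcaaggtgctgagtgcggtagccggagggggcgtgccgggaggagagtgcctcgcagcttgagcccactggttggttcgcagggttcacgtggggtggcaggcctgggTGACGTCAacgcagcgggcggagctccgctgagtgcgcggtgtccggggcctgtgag
A match describes the letters only. Both genes had log2 fold changes near 0, at −0.011 and 0.02.

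**Figure D3:**
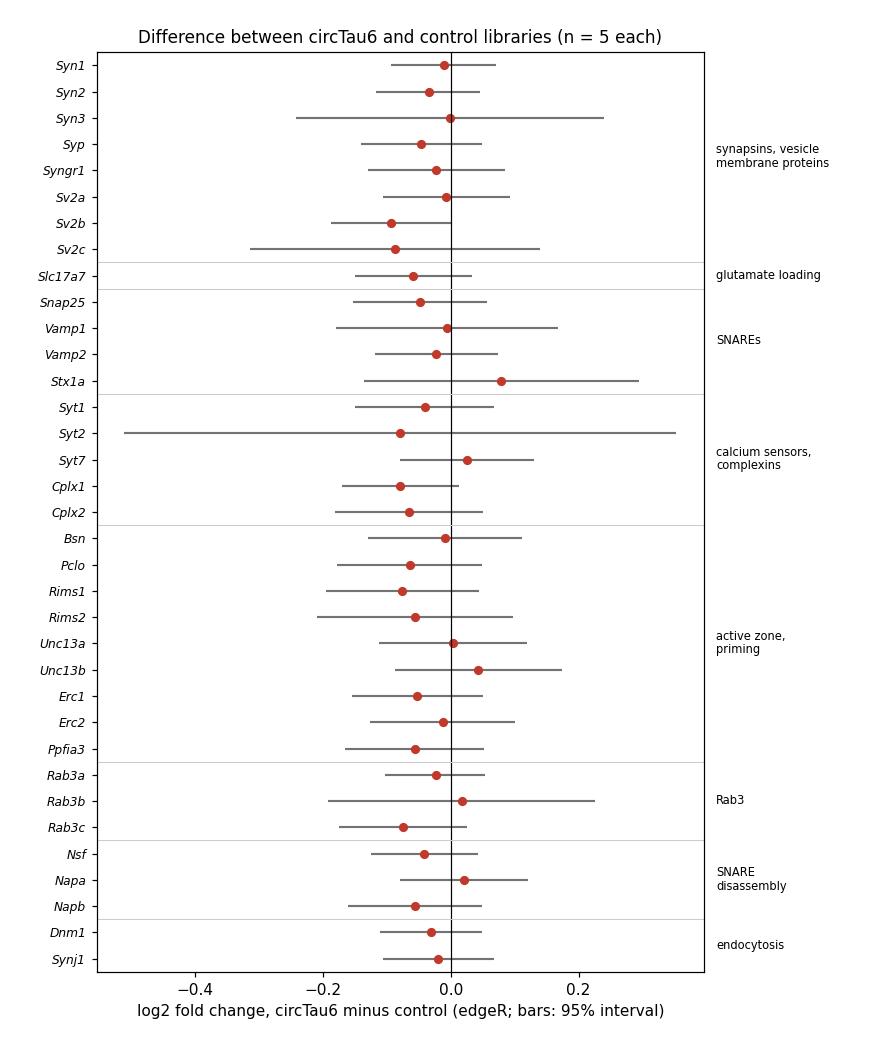
Log2 fold change of each member, circTau6 minus control, from edgeR (points) with 95% intervals (bars), grouped by role (n = 5 libraries per group). The points lie between −0.094 and 0.079, and 32 of 35 intervals stay within 0.25 either way.

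Small negative values prevailed. Of the 35 members 29 had a negative log2 fold change and 6 a positive one, where 50.1% of all tested genes were negative. The members' median was −0.035, a difference of −2.4%, and that of all tested genes was −0.00024. With libraries scaled by total count alone, 22 members were negative against 39.9% of all genes, and the medians were −0.013 and 0.023. On log2(TPM + 1), 22 members were negative against 42.2%, with medians of −0.014 and 0.017. On leaving out 1 library, 24 to 30 members were negative. No member had all 5 circTau6 libraries below all 5 controls or above them, where 0.368% and 0.472% of tested genes did. In the authors' deposited table the lowest p among the members was 0.124, for Stx1a, with an FDR of 0.987, and Sv2b had a log2 fold change of −0.076 and a p of 0.774.

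Members shared deviations within single libraries. In control replicate 2 all 35 lay above their mean over the 10 libraries, with a median deviation of 0.095 on the log2 scale, and 15 of 35 had their highest value there (42.9%, against 9.25% of all tested genes). In circTau6 replicate 5 the median deviation was 0.041, with 26 members above their mean and 7 at their highest (20%, against 10.9% of all tested genes). Replicate 2 of circTau6 had the same median deviation of 0.041, with 29 above their mean and 5 at their highest (14.3%, against 9.68%). Control replicate 2 and circTau6 replicate 5, but not circTau6 replicate 2, nearly lacked choroid plexus transcripts. Ttr, the transthyretin gene of that tissue, had 27.95 CPM in circTau6 replicate 5 and 1671 to 4961 CPM in the 4 remaining ones, against 38.57 CPM in control replicate 2 and 2606 to 4012 CPM in the other controls. The summed choroid plexus and ependyma list spanned 68.9 to 5549 CPM in circTau6 libraries and 78.51 to 4582 CPM in control libraries. The part of choroid plexus content in the members' values was not tested, and 1 such library lay in each group. With both left out, 0 members were called and the members' median log2 fold change was −0.034. Both deviated upward, 1 in each group, so leaving out both can cancel. Leaving out control replicate 2 alone gave a median of −0.021 with 24 members negative. Leaving out circTau6 replicate 5 alone gave −0.045 with 30 negative.

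At the other end, 17 of 35 members (48.6%) were at their lowest in circTau6 replicate 3, against 20.2% of all tested genes. Replicates 1 and 4 of circTau6 held the lowest value of 7 and 5 more members (20% and 14.3%, against 9.32% and 7.24% of all tested genes). In circTau6 replicate 4, 30 of 35 lay below their mean, with a median deviation of −0.046, against 0.008 for all tested genes. The largest deviations in replicate 3 were −0.251 for Rims2, −0.224 for Pclo, −0.223 for Sv2c, −0.211 for Napb and −0.191 for Rims1, while Syn3, Unc13b and Rab3b were above their means by 0.124, 0.112 and 0.107. In that library the deviation of a gene correlated with the GC content of its longest transcript at 0.28 across the 35 members and 0.33 across 13066 tested genes. In the other libraries this was −0.23 to 0.07 and −0.08 to 0. The points share library and depth. Members ranged from 38.7% GC (Snap25) to 60.9% (Ppfia3). Without circTau6 replicate 3, 27 members were negative with a median of −0.019, and 0 were called. Across the members the log2 fold change correlated with GC content at 0.26, and at 0.13 without circTau6 replicate 3. With a correction for GC content, added after seeing the data, 27 members were negative with a median of −0.037, against −0.035 without the correction, and 0 were called.

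**Figure D4:**
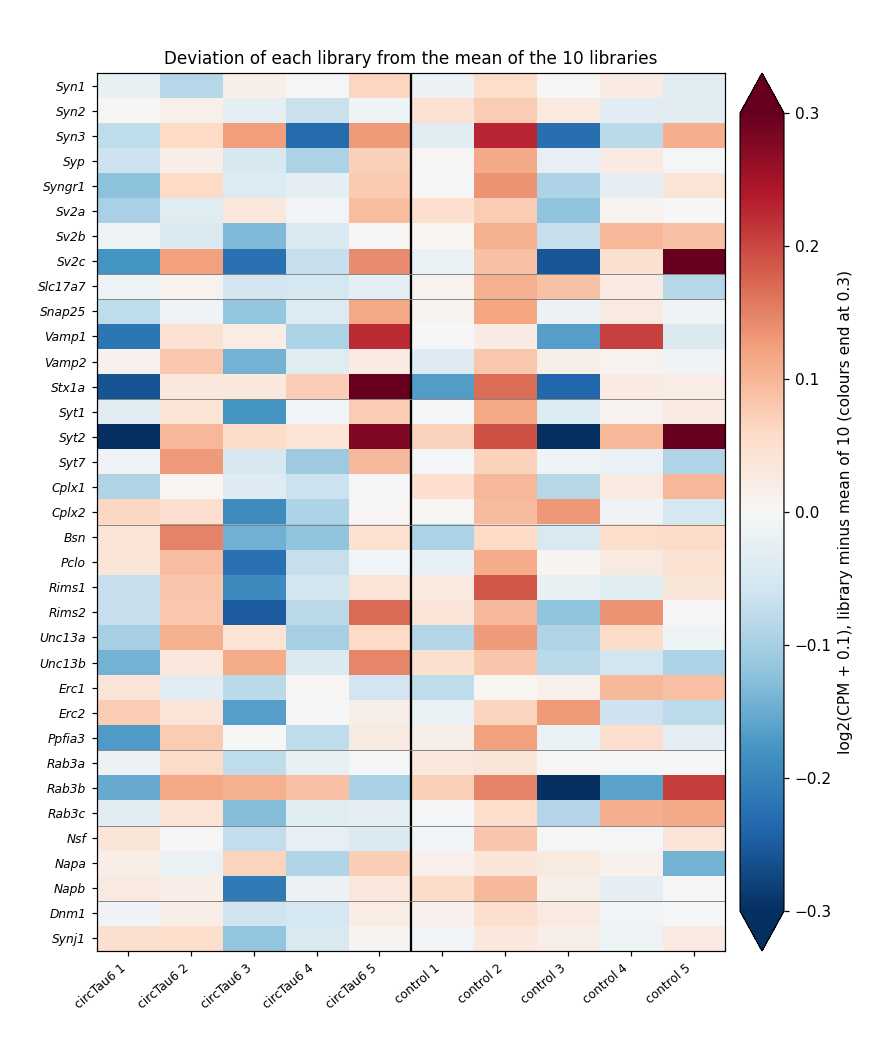
Deviation of each library from the mean of the 10 libraries, on the log2(CPM + 0.1) scale, for each member (rows, by role) with circTau6 libraries left and control libraries right of the line. Control replicate 2 is above the mean for all 35 genes, and circTau6 replicate 3 holds many of the lowest values, down to −0.251 for Rims2.

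**Figure D5:**
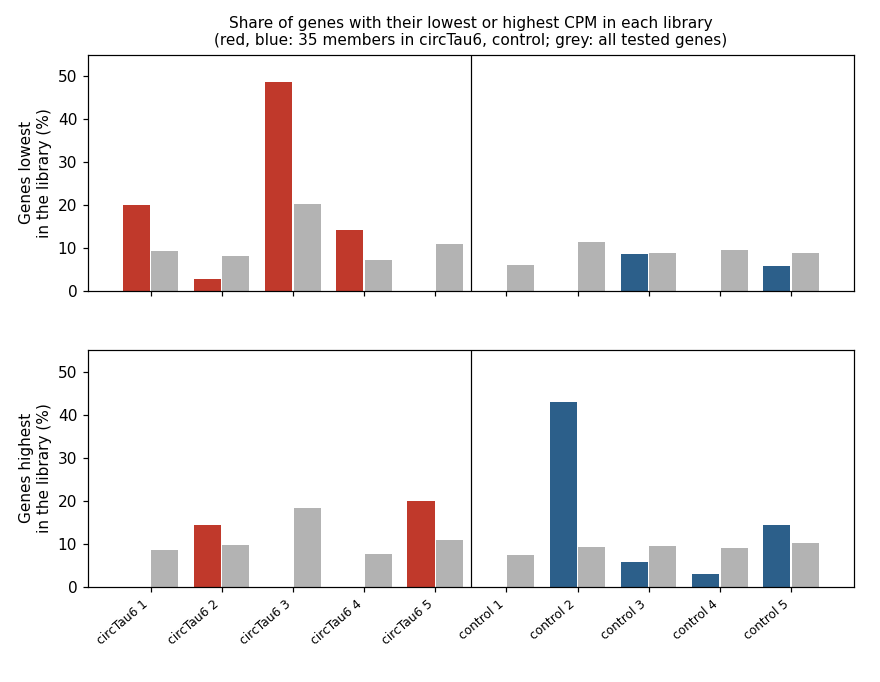
Percentage of the 35 members (red for circTau6, blue for control libraries) and of all tested genes (grey) that have their lowest (top) or highest (bottom) CPM in each library. Members are at their lowest in circTau6 replicate 3 in 48.6% of cases and at their highest in control replicate 2 in 42.9%.

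The coefficient of variation over the 10 libraries had a median of 5.45% for the members and 9.6% for all tested genes. Among genes with a mean of at least 100 CPM it was 5.38% for 27 members and 5.45% for 2301 genes. Variation above 10% was seen for Syt2, Sv2c, Stx1a, Rab3b and Syn3.

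No other listed gene of the vesicle cycle passed the test. Of 88 tested genes in lists that complement the members, 0 had an edgeR adjusted p under 0.05, 1 was lower at an unadjusted p under 0.05 and 0 were higher. Their median log2 fold change was −0.019, with 55 negative and 33 positive values, where 50.1% of all tested genes and 82.9% of the members were negative. The list of other SNARE genes and regulators ran the other way, with 5 negative and 7 positive values and a median of 0.011. The gene with the low p was Snap91, the clathrin adaptor AP180, with 345, 366.8, 329.6, 348.9 and 380.9 CPM in circTau6 replicates 1 to 5, against 374.5, 378, 371.2, 384.8 and 384 CPM in control replicates 1 to 5. Only replicate 5 of circTau6 lay within the control range, and the log2 fold change was −0.096 ± 0.042 (SE) with an adjusted p of 0.981. Of 12 SNARE partners and regulators the lowest p belonged to Vamp4, a SNARE of endosomal and bulk retrieval traffic, at −0.094 ± 0.062 (SE), and to the complexin Cplx3 at 0.556 ± 0.366 (SE). Of 15 synaptotagmins and other calcium sensors they were Doc2b, a sensor of spontaneous release, at −0.168 ± 0.082 (SE), and Syt6 at 0.322 ± 0.17 (SE). Of 13 active zone and priming genes they were Cadps2, a priming factor of dense-core vesicles, at −0.101 ± 0.055 (SE), and the liprin gene Ppfia2 at −0.087 ± 0.06 (SE). In a list of 9 presynaptic calcium channel and adhesion genes, the calcium channel subunit gene Cacna2d1 had −0.066 ± 0.069 (SE). For 18 further vesicle membrane and transporter genes they were Rab5a, an early endosome GTPase, at −0.103 ± 0.052 (SE), and the Rab acceptor Rabac1 at 0.099 ± 0.061 (SE). After Snap91, the lowest p of 21 endocytic genes was that of Dnm2, the ubiquitous dynamin, at 0.131 ± 0.064 (SE).

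Markers of the cells in the tissue are given beside these values. In bulk tissue, fewer cells of a type and less RNA per cell cannot be told apart. Hippocampal excitatory neuron markers were present in every library, with the summed level of 11 genes at 4122 to 4652 CPM in circTau6 libraries and 4171 to 4892 CPM in control libraries. Of these, 9 (against 50.1% of all tested genes) had negative log2 fold changes, with a median of −0.101 over the list. At an unadjusted p under 0.05, where 1.85% of all tested genes were lower, 2 of them were lower. They were Neurod6, a pyramidal neuron factor, at −0.141 ± 0.064 (SE), and Spink8, a CA1 marker chosen after its values were seen, at −0.268 ± 0.103 (SE). Pan-neuronal markers were negative for 11 of 11 genes, with a median of −0.066 and summed levels of 3589 to 4304 CPM in circTau6 libraries and 4028 to 4303 CPM in control libraries. As for the members, circTau6 replicate 3 was the lowest. In the oligodendrocyte list 6 of 7 genes were negative (median −0.032), and in the interneuron list 6 of 10 (−0.003). The astrocyte list had 4 of 7 negative (−0.013), and the thalamus and brainstem list 4 of 9 (0.023). Microglia markers stood apart. Of 10 genes 9 were higher at an unadjusted p under 0.05, against 2.58% of all tested genes, and 0 were called. The list was chosen with earlier results of these data known, so this count is no independent evidence. Its summed level was 513.9 to 566.8 CPM in circTau6 libraries and 436.9 to 481.3 CPM in control libraries. Summed astrocyte markers overlapped, at 4150 to 4977 CPM in circTau6 and 4333 to 4929 CPM in control libraries, as did interneuron markers at 992.5 to 1171 and 1046 to 1175 CPM. The thalamus and brainstem list had 160.6 to 257 CPM in circTau6 and 137.7 to 250.9 CPM in control libraries, the striatal list 90.67 to 134.5 and 94.42 to 127.2 CPM, and the oligodendrocyte list 4772 to 5145 and 4439 to 5454 CPM. Precursor, endothelial and meningeal markers were at 181 to 210.6, 180.1 to 223.6 and 105.7 to 433.1 CPM in circTau6 libraries, and at 172.6 to 204.1, 175.7 to 207.9 and 133.3 to 326.2 CPM in control libraries. No marker in these lists was at 0 in all libraries, and the part of cell content in the members' values was not tested.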

How the data were processed

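Per the labels' protocols, RNA was depleted of ribosomal RNA, made into strand-specific libraries and sequenced in pairs of 150 bp. StringTie 1.3.1 and RSEM appear in the submitters' processing notes without a stated role, and aligner, build and gene annotation are not given there. According to the file headers, the authors deposited a count and a TPM per gene and library, the group means of TPM, a log2 fold change, a p-value and an FDR. The test behind the authors' p-values is not given. In 108 entries a count of 0 stands beside a TPM above 0, so the deposited counts may be rounded estimates. Total counts were 14762952 to 17647138 per library, so that 3 counts equal at most 0.203 CPM (counting error only).

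The treatment label gave the groups. The 35 members, the other gene lists and the tests were chosen with earlier results of these data known. Counts were filtered with filterByExpr, scaled with TMM and tested over all genes with edgeR 4.0.16 in R 4.3.3 (robust quasi-likelihood F test), with p-values adjusted by Benjamini-Hochberg at 0.05. Standard errors were obtained from the F statistic (log2 fold change over its square root), and 95% intervals use the total degrees of freedom of the fit. No set test was made. Deviations are on log2(CPM + 0.1). Alternatives were DESeq2 1.42.0, limma 3.58.1 (voom with sample weights, and directly on log2(TPM + 1) and log2(TPM + 0.1)), other scalings and filters, a replicate block, a threshold of 0.1 and leaving out libraries; a GC correction (lowess with a span of 0.3) and leaving out 3 libraries were added after seeing the data. The fit was also run on simulated counts with known changes. Those changes were larger than the members' differences, and genes were drawn independently, without shifts shared within a library. The simulation therefore cannot show whether changes of the members' size would be found.

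Genes named are all members, of the other vesicle release lists the 2 with the lowest p in each, and at most 2 markers per list by mean CPM, plus Ttr; any other is said to be chosen after its values were seen. A gene that this rule names is not reported here. Gene positions, transcripts and overlaps come from GENCODE M21 (GRCm38), matched by gene ID.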

Additional observations from a re-analysis of the deposited data

Results flagged for a closer look

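Of 108 groups of 5 values examined, 3 held a library far from the others of its group, and chance picks out about 5 in 100. The summed TPM of the 35 members was 1.38% in control replicate 2, where the next highest control had 1.3%; this is the control library nearly lacking choroid plexus transcripts. Napb, the brain SNAP adaptor, had 475 CPM in circTau6 replicate 3, where the next lowest circTau6 library had 544 CPM. Napa, its ubiquitous relative, had 165 CPM in control replicate 5, where the next lowest control had 184 CPM. The part of the makeup of these libraries in the 3 values was not tested.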

How the results depend on the processing

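No member was called under any of the 23 alternatives to the fit or at a threshold of 0.1, and the lowest adjusted p of a member was 0.734. The members' median log2 fold change stayed negative, from −0.048 without circTau6 replicate 2 to −0.013 with library size only, while that of the other vesicle release genes was 0.004 with library size only. Members with an unadjusted p under 0.05 numbered 0 with RLE, upper-quartile or library size scaling, with every gene kept, with voom, on either TPM scale, and with 2 or 3 libraries left out. Leaving out 1 library gave 0 to 3 members, where 452 to 969 of all genes had such a p. The 3 (Sv2b, Cplx1 and Rab3c) came without control replicate 3, where 567 of all genes had it, against 637 in the main fit. Members whose groups did not overlap numbered 0 to 2 on leaving out 1 library. The 2, Sv2b and Cplx1, came without control replicate 3 as well. For both genes it was the only control inside the circTau6 range, so leaving it out was bound to set the groups apart. The share of all tested genes under that setting was not computed. For all genes edgeR called 2 with library size only, with every gene kept, with the GC correction or at a threshold of 0.1, 3 without both choroid-poor libraries, and 0 to 4 on leaving out 1 library, and DESeq2 called 15. Deviations of same-numbered libraries correlated weakly (0.1, 0.13, 0.14, −0.06 and −0.08). Each value rests on a single pair of libraries, so whether the numbers stand for pairs cannot be told from them. The replicate block called 4 genes, none a member, and gave Syn3 a log2 fold change of 0.001.

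In all, 20 of 35 members changed sign under at least 1 setting, all without a call, and the cause was not tested. They include Syt2 (−0.079), Pclo (−0.064), Snap25 (−0.049) and Syp (−0.046), whose values lie beyond the members' median. With library size only these were Syn1 (0.012), Syn3 (0.021), Sv2a (0.016), Vamp1 (0.016), Bsn (0.012), Erc2 (0.009) and Synj1 (0.002), and with upper-quartile scaling Syn3 (0.008), Sv2a (0.003) and Vamp1 (0.003). On log2(TPM + 1) they were Syn1 (0.005), Syn3 (0.016), Syp (0.053), Syngr1 (0.017), Sv2a (0.01), Vamp1 (0.009), Erc2 (0.015), Dnm1 (0.005), Synj1 (0.004), Unc13a (−0.036) and Rab3b (−0.004). On log2(TPM + 0.1) the values were the same save for Syn3 (0.018), Sv2a (0.011) and Unc13a (−0.037). With voom they were Unc13a (−0.012) and Erc2 (0.011), with the GC correction Syn3 (0.016), Snap25 (0.011), Vamp1 (0.002) and Unc13a (−0.015), and without both choroid-poor libraries Syn3 (0.027). With these and circTau6 replicate 3 left out they were Vamp2 (0.025), Syt1 (0.001), Bsn (0.033), Pclo (0.008), Erc2 (0.044), Synj1 (0.013), Unc13b (−0.005) and Napa (−0.01). On leaving out 1 library the ranges that crossed 0 were −0.05 to 0.023 for Bsn, −0.034 to 0.023 for Erc2, −0.011 to 0.043 for Napa, −0.054 to 0.073 for Rab3b, −0.034 to 0.016 for Sv2a, −0.03 to 0.008 for Syn1, −0.053 to 0.06 for Syn3, −0.046 to 0.009 for Syngr1, −0.036 to 0.004 for Synj1, −0.18 to 0.054 for Syt2, −0.006 to 0.052 for Syt7, −0.024 to 0.037 for Unc13a, −0.067 to 0.049 for Vamp1 and −0.046 to 0.007 for Vamp2.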
